A study of Homo sapiens with 12 samples.

Results

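The transcriptome of 786-O cells exposed to everolimus alone was compared with that of cells given the solvent DMSO. The comparison used 6 of the 12 RNA sequencing libraries of the study, 3 per group, and every gene that passed a filter on low counts, which left 12841 of the 17085 genes in the table and removed 4244. 786-O is an established human renal carcinoma line that lacks functional VHL. The DMSO group was untreated apart from the solvent, and the everolimus group received 5 µM for 24 h according to the sample labels. The methods of the study also give 5 µM, whereas the protocol text of the deposit gives 10 µM. The other 6 libraries came from cells given 1.5 µM SGI-1027, a quinoline-based inhibitor of DNA methyltransferases, alone or together with everolimus. All groups were the same wild-type line in the same serum-containing medium, and nothing in the labels says that the replicates were separate cultures, so p-values measure the spread between these libraries, which may be technical.

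Everolimus is a rapamycin analogue. It binds the small protein FKBP12, encoded by FKBP1A, and the pair docks on the kinase mTOR within complex 1, which is defined by RAPTOR. Complex 1 couples nutrients and growth factors to ribosome production, translation, nucleotide and lipid synthesis and entry into the cell cycle, and it restrains autophagy and the lysosomal programme of the factors TFEB, TFE3 and MITF. It also feeds back on receptor tyrosine kinases and on AKT, a kinase that holds the FOXO transcription factors out of the nucleus, so its inhibition is known for relief of that feedback.

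The libraries held 37046231 to 41516976 counts in the DMSO group and 37235680 to 40672186 in the everolimus group, and normalization factors lay between 0.990 and 1.007. DMSO replicate 1 stood somewhat apart from its group: per gene, the chi-square between it and DMSO replicates 2 and 3 averaged 10.4 and 13.3, against 3.62 between the latter pair and 3.37 to 3.59 within the everolimus group. Counts of list members below are given with the omission of a library, or under upper-quartile scaling, where that moved them by more than 1.5 times. All 14 renal carcinoma identity markers were detected, and their summed level was 9709 to 10243 CPM (counts scaled to a common library total) in DMSO and 11000 to 11277 CPM in everolimus libraries, most of it from the intermediate filament gene VIM. Of 15 markers of blood, endothelial, other nephron and liver cells, 6 to 10 were at 0 in each library and the sum was 0.885 to 1.46 CPM. The endothelial receptor TEK was the highest of these and neither it nor PECAM1, the endothelial marker that was also tested, passed the test.

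The response was broad and mostly of small size. A gene was called at an adjusted p under 0.05 in the quasi-likelihood test of edgeR, adjusted over all tested genes by the Benjamini-Hochberg method, and by this rule 3488 genes (27.2% of those tested) rose and 3749 (29.2%) fell. A different scaling of the libraries, by upper quartiles, moved the split from 48.2% to 60.7% of called genes higher, with a shift of 0.074 in the median log2 fold change of all genes. Of the 7237 called genes, 4935 (68.2%) changed by less than 0.5 on the log2 scale, and of these 2122 rose and 2813 fell. At the other end, 576 called genes changed by at least 1 on the log2 scale, 469 upward and 107 downward. The cut-off for differentially expressed genes (DEGs), an unadjusted p under 0.05 with a change of 1 or more on the log2 scale in either direction, took 499 upregulated genes (3.89%) and 116 downregulated genes (0.903%). Without regard to size, all everolimus libraries lay above all DMSO libraries for 3933 genes (30.6%) and below them for 4145 (32.3%).

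Genes that rose and genes that fell differed in level, given here and below as CPM scaled by the normalization factors. The median DMSO level was 18.9 CPM for genes called higher and 53.2 CPM for those called lower, against 25.6 CPM over all tested genes. Upregulated DEGs were scarce transcripts, with a median of 0.471 CPM in DMSO, and 329 of the 499 (65.9%) were under 1 CPM. Downregulated DEGs had a median of 3.75 CPM. The filter on low counts looked at all 12 libraries, so a gene near 0 in DMSO entered only if it was higher in libraries given a drug. This selection can add to the rises among scarce genes, here and in the lowest level class below, by an amount that was not tested. Across 5 equally filled classes of mean level, the median log2 fold change went from 0.28 in the lowest class through 0.06, -0.02 and -0.06 to -0.07 in the highest, and the share called lower went from 6.93% to 45.1%. The share called higher stayed between 25% and 31% in all 5 classes. The median log2 fold change varied less with gene length, between -0.05 and 0.06 over 5 classes of length.

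**Figure D1:**
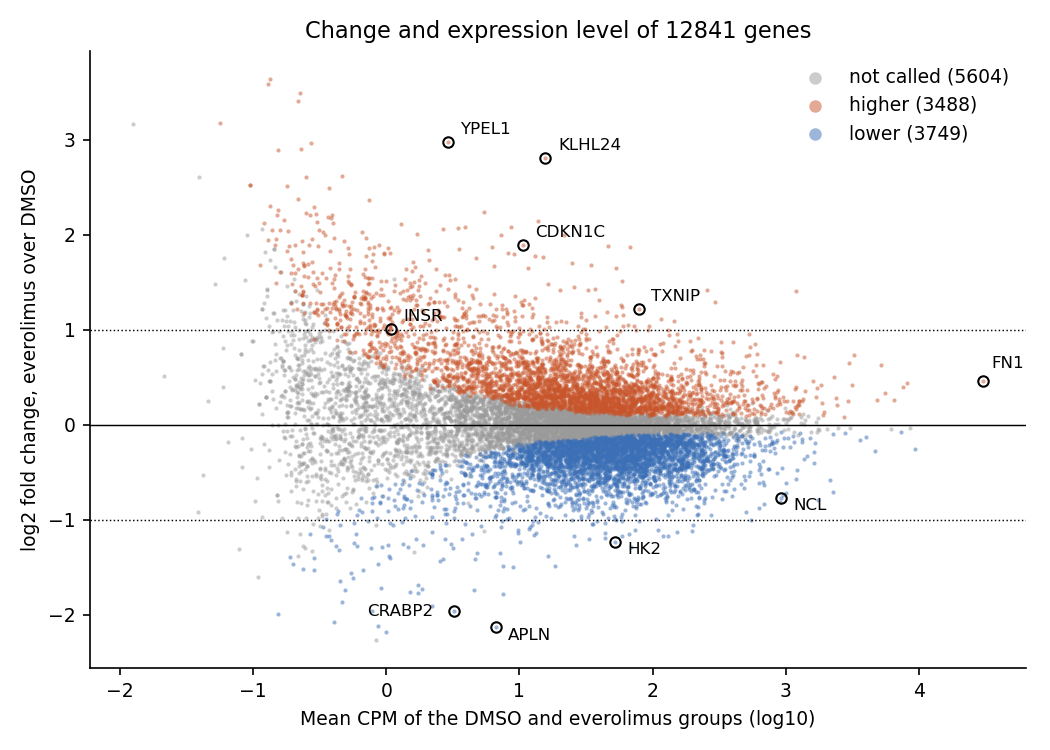
Log2 fold change of each tested gene, everolimus against DMSO, against the mean of its group levels in CPM on a log10 axis, with called genes coloured by direction. Genes called lower crowd into the right side of the level axis, and the largest rises sit at the low end.

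The largest changes among well-measured genes included growth arrest and signalling genes. YPEL1, a member of the yippee-like family of nuclear proteins, was at 0.671, 0.656 and 0.628 CPM in DMSO replicates 1 to 3 and at 4.68, 5.40 and 5.36 CPM in the everolimus replicates. Only called genes that averaged 50 counts or more and whose groups did not overlap were ranked. YPEL1 had the highest log2 fold change of these, 2.98 (SE 0.17, adjusted p = 1.2e-10). KLHL24, a substrate adaptor of a cullin ubiquitin ligase, was at 4.27, 3.69 and 3.85 CPM and rose to 27.2, 27.0 and 28.1 CPM, a log2 fold change of 2.80 (SE 0.071). SIGLEC15, a sialic acid binding receptor with immune inhibitory activity, rose by 2.14, and LBH, a transcriptional co-regulator, by 1.99. The gene for PIK3IP1, a membrane protein that inhibits phosphoinositide 3-kinase, went from 2.01, 1.38 and 1.05 CPM to 6.59, 6.45 and 5.77 CPM (log2 fold change 2.08, SE 0.19). ODAPH, NATD1, ZMAT1, ADAMTS13 and MST1 completed the 10 genes that rose most, at 2.01 to 2.24. In all 10 the mean with SGI-1027 also exceeded that with DMSO, a difference that was not tested. It was above the everolimus mean in LBH (46.7 against 34.6 CPM), for example, and below it in YPEL1 (3.46 against 5.14 CPM).

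Among the genes that fell most, APLN, which encodes the vasoactive peptide apelin, went from 12.9, 9.69 and 9.87 CPM in DMSO to 2.32, 2.25 and 2.82 CPM with everolimus. The log2 fold change was -2.13 (SE 0.14, adjusted p = 5.43e-10). The same conditions held for this ranking, so the lack of overlap between the groups was required. CRABP2, a cytosolic carrier of retinoic acid, fell from 5.69, 4.78 and 4.97 CPM to 1.30, 1.10 and 1.57 CPM, a log2 fold change of -1.96. MFSD2A, a transporter of lysophospholipids, fell by 1.74 on the log2 scale, and the Wnt ligand gene WNT10B by 1.77. ADGRF2, OLFML2B, RTL9, MAL, KLF17 and the adenosine receptor gene ADORA2A made up the rest of the 10, with log2 fold changes of -1.91 to -1.496. In all 10 the mean with SGI-1027 also lay below that with DMSO, which was not tested, though barely in RTL9 (2.29 against 2.32 CPM).

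Small changes also stood outside the replicate spread in abundant genes. FLNA, which encodes the actin crosslinker filamin A, was at 6747, 7064 and 6959 CPM in DMSO and at 9332, 9112 and 9697 CPM with everolimus, a log2 fold change of 0.44 (SE 0.032, adjusted p = 2.37e-09). MBTPS1, the Golgi protease that cleaves SREBP and ATF6, rose from 191, 188 and 187 CPM to 260, 255 and 251 CPM, and ITGB1, the common integrin beta chain, rose by 0.42. Downward, the glycolytic enzyme gene PGAM1 went from 640, 626 and 631 CPM to 448, 444 and 452 CPM (log2 fold change -0.50). PYGL, the liver form of glycogen phosphorylase, was at 232, 231 and 234 CPM and fell to 166, 165 and 163 CPM. GSPT1, a translation termination factor, fell by 0.48 on the log2 scale. In each of these genes the gap between the groups exceeded the range within either group, as their choice by p-value largely ensured.

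Translation was described through 5 lists of genes. These and the later lists were chosen with earlier results of these data known, which can raise the shares called, by an amount that was not tested. Genes for assembling ribosomes fell most widely, those for mitochondrial ribosomal proteins, tRNA synthetases and translation factors fell in most cases, and those for the cytosolic ribosomal proteins themselves had a median change near 0. Of 124 tested ribosome biogenesis genes, 113 (91.1%) fell and 0 rose (1 under upper-quartile scaling), with a median log2 fold change of -0.60 against 0.00 over all genes. In 115 of the 124 all everolimus libraries lay below all DMSO libraries, which held for 32.3% of all genes. NCL, the nucleolar protein nucleolin, was at 1128, 1190 and 1191 CPM in DMSO and at 694, 671 and 699 CPM with everolimus (log2 fold change -0.77, SE 0.036, adjusted p = 1.07e-11). BOP1, a factor in processing the precursor of the large subunit, fell from 185, 180 and 179 CPM to 80.7, 80.1 and 81.9 CPM (log2 fold change -1.16). The replicates of either group lay close together in both genes, far from those of the other group. The nucleolar chaperone NPM1 fell by 0.73 and the processing factors NOL6 and RRP12 by 1.11 and 1.17 on the log2 scale. LYAR, a nucleolar growth regulator picked out after its value was seen as the extreme of the list, fell by 1.49. The RNA polymerase I genes POLR1A and RRN3 fell by 0.48 and 0.31.

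In contrast to the assembly factors, 14 of 79 cytosolic ribosomal protein genes (17.7%) rose and 7 fell, and their median log2 fold change was 0.06. Without DMSO replicate 1, 8 rose and 12 fell, and 8 and 9 rose without everolimus replicates 1 and 3. Under upper-quartile scaling, by which 34.9% of all genes rose, 36 rose and 6 fell with a median of 0.13, and 24 rose in a fit of the 6 libraries alone. How many of these genes were called, and which way they leaned, thus depended on the scaling and on single libraries. RPS6, the ribosomal protein that the mTOR-activated S6 kinases phosphorylate, was at 1298, 1305 and 1303 CPM in DMSO and at 1330, 1321 and 1299 CPM with everolimus. The groups overlapped, and the log2 fold change of 0.02 (SE 0.032) did not pass the test (adjusted p = 0.692). RPL3 rose by 0.30. RPS26, RPL17 and RPS10, the last pair chosen after their values were seen, had the lowest log2 fold changes, -0.73, -0.64 and -0.55. Ribosomal protein genes have many processed pseudogenes and RPL17 and RPS10 have readthrough neighbours, and how the authors' counting split such reads is not known.

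Of 55 translation factor genes, 35 fell and 6 rose. EIF4E, the cap-binding protein that is released when mTOR phosphorylates its repressors, was at 50.05, 54.8 and 53.9 CPM and fell to 37.3, 37.3 and 39.7 CPM (log2 fold change -0.47, SE 0.060). EIF4EBP1, the gene of its main repressor, was at -0.14 and did not pass the test (adjusted p = 0.141). EIF4G2, a scaffold for cap-independent initiation, fell by 0.57. The genes that rose included PDCD4, an inhibitor of the helicase EIF4A, which went from 18.2, 20.9 and 20.6 CPM to 55.4, 53.7 and 52.1 CPM (log2 fold change 1.43, SE 0.059), and EEF1A1, the elongation factor that carries tRNA to the ribosome, which went from 6162, 6716 and 6880 CPM to 8919, 8507 and 8525 CPM (log2 fold change 0.39). The genes that rose were thus of mixed role, since PDCD4 opposes initiation and EEF1A1 serves elongation. EEF2 changed by -0.09 and its call was lost under 7 of the alternative settings.

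The charging of tRNAs and the mitochondrial ribosome moved in the same direction. Of 22 cytosolic tRNA synthetase genes 16 fell and 2 rose, and of 77 mitochondrial ribosomal protein genes 62 (80.5%) fell and 0 rose, with a median log2 fold change of -0.37. VARS1, which charges valine tRNA, was at 283, 283 and 282 CPM and fell to 143, 147 and 147 CPM, so that neither group spread by more than a few CPM around means that differed by a log2 fold change of -0.95 (SE 0.035). YARS1, the tyrosine enzyme, fell by 0.54. MRPL12, a large-subunit protein of the mitochondrial ribosome, fell from 99.3, 94.4 and 101 CPM to 61.2, 58.4 and 66.5 CPM (log2 fold change -0.66).

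**Figure D2:**
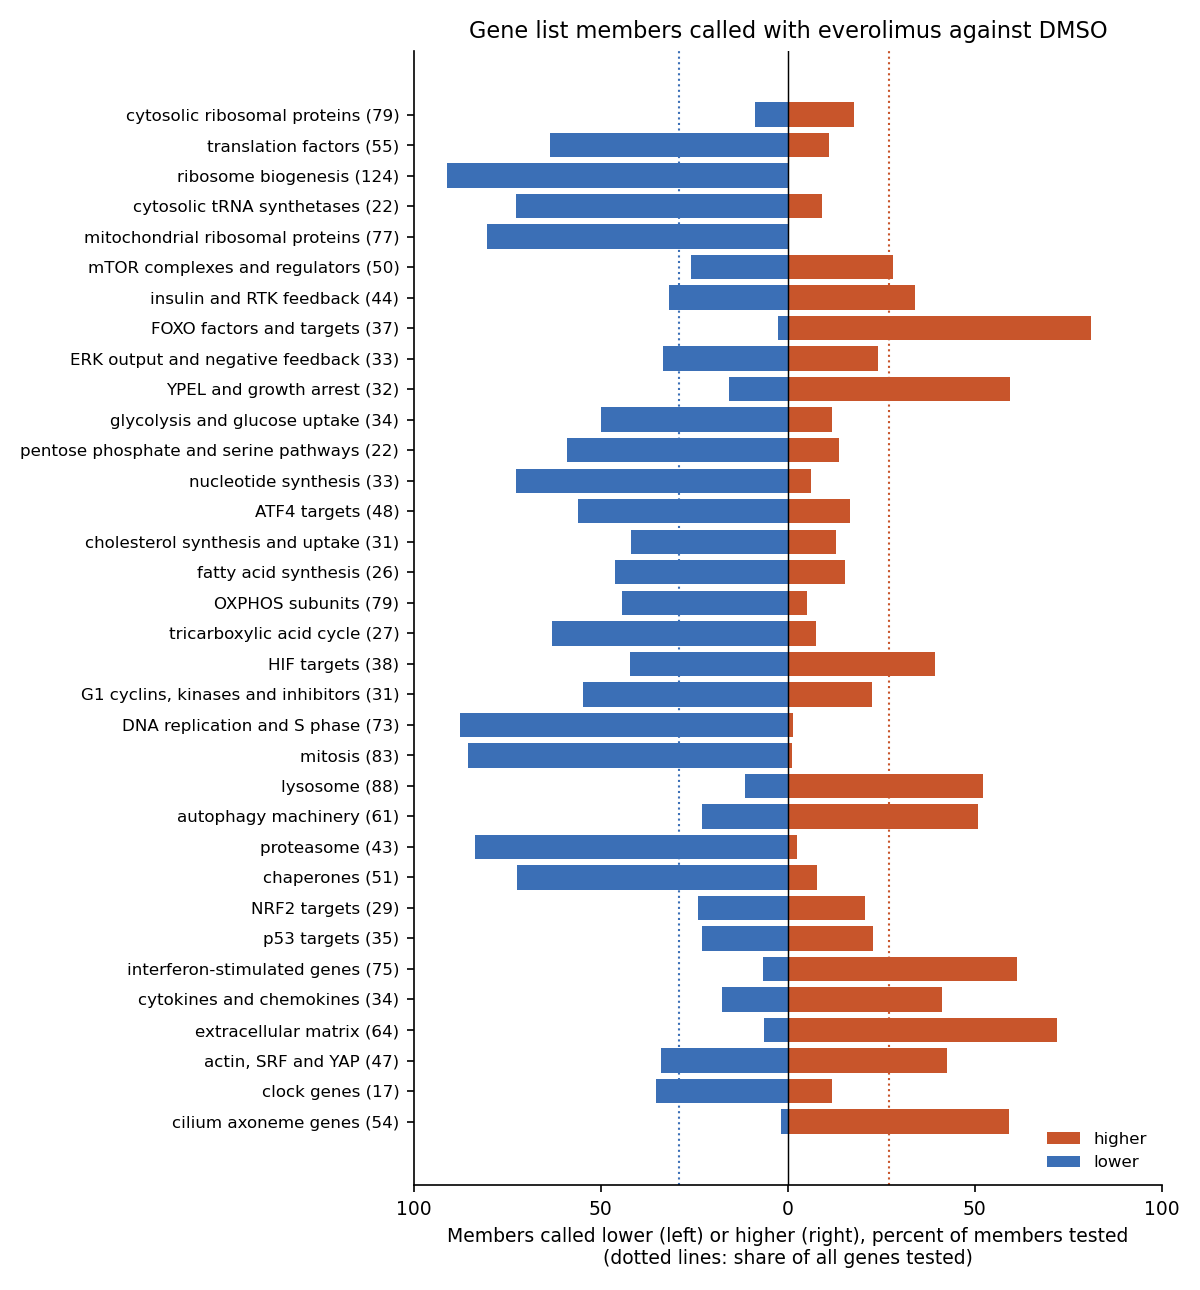
Share of the tested members of each gene list that were called higher (right) or lower (left) with everolimus, in percent, with the share over all tested genes drawn as reference lines. Ribosome biogenesis, DNA replication and mitosis reach furthest to the left, and FOXO targets and extracellular matrix furthest to the right.

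Components of the mTOR complexes and their regulators showed no common direction: of 50 tested genes 14 rose and 13 fell, close to the shares over all genes. The target kinase MTOR changed by 0.09 and just missed the threshold (adjusted p = 0.0512), though it passed under 7 alternative settings. RPTOR, which defines complex 1, went from 72.1, 64.0 and 62.7 CPM to 48.2, 46.4 and 50.5 CPM (log2 fold change -0.45, SE 0.060). RICTOR, which defines complex 2, moved the other way, from 39.3, 44.5 and 43.5 CPM to 61.9, 64.1 and 66.9 CPM (log2 fold change 0.60, SE 0.050). Neither gene had an overlap between the groups. TSC2, the tumour suppressor that holds RHEB inactive, rose by 0.40, and ULK1, the kinase that starts autophagy, by 0.76. DDIT4, a stress-induced inhibitor of complex 1, fell from 220, 239 and 226 CPM to 146, 137 and 152 CPM (log2 fold change -0.65). FKBP1A, which encodes the drug's binding partner, rose by 0.18.

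Among 44 genes of the insulin and receptor tyrosine kinase feedback, 15 (34.1%) rose and 14 (31.8%) fell. Those shares are not far from the 27.2% and 29.2% over all genes. IGF1R, the receptor for insulin-like growth factors, was at 38.2, 39.8 and 35.7 CPM and rose to 55.2, 53.6 and 56.2 CPM (log2 fold change 0.54, SE 0.055). INSR was scarce, at 0.483, 0.826 and 0.864 CPM in DMSO and 1.05, 1.95 and 1.36 CPM with everolimus. Its log2 fold change of 1.01 (SE 0.34, adjusted p = 0.0171) became 0.79 without DMSO replicate 1 (adjusted p = 0.0739) and 0.73 without everolimus replicate 2 (adjusted p = 0.115). On log2(FPKM + 1) the difference was 0.10 (adjusted p = 0.0704), so the call was lost in each of these settings. EGFR and ERBB2 rose by 0.20 and 0.23. The adaptor IRS1, which mTOR signalling represses, was at 101, 92.4 and 90.2 CPM in DMSO and at 90.2, 90.5 and 94.0 CPM with everolimus, and the overlapping groups gave a log2 fold change of -0.05 (adjusted p = 0.456). IRS2 rose by 0.17. IGFBP3, a secreted binder of insulin-like growth factors, fell from 902, 870 and 891 CPM to 524, 478 and 491 CPM (log2 fold change -0.84), while IGFBP7 rose by 0.79. FGFR4 fell by 0.92. ERBB3, another receptor known for this feedback, had too few counts to be tested.

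FOXO factors and their known targets rose in most cases: 30 of 37 (81.1%) were called higher and 1 lower (2 without everolimus replicate 2), with a median log2 fold change of 0.43. The members were chosen with earlier results of these data known, and some are among the largest rises. That choice can raise the share called higher, by an amount that was not tested. The set included the factors FOXO1, FOXO3 and FOXO4, at 0.40, 0.35 and 0.92. TXNIP, which binds thioredoxin and limits glucose uptake, was at 45.3, 47.7 and 49.6 CPM and rose to 116, 104 and 112 CPM (log2 fold change 1.22, SE 0.056, adjusted p = 9.22e-12). CCNG2, an unusual cyclin linked to withdrawal from the cycle, rose from 11.4, 10.6 and 13.3 CPM to 40.0, 38.0 and 36.6 CPM (log2 fold change 1.70). The members KLHL24 and PIK3IP1 are those described above among the largest rises. The core FOXO motif GTAAACA, searched on both strands in the 300 bases around the start site given by RefSeq (250 before, 50 after), occurred in 5 of 33 FOXO list promoters (15.2%) and in 2.30% of the 10378 tested genes with a promoter sequence. All 5 genes that held it rose, as did 22 of the 28 that did not. The TXNIP promoter is shown as an example, from 160 to 61 bases before the start, with the motif in capitals, at chr1:145996640-145996739 on the minus strand of GRCh38.p14.
TXNIP: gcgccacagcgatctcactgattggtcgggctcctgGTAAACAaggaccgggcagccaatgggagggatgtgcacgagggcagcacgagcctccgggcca

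Of 32 genes in a combined list of yippee-like and other growth arrest genes, which shares several members with the FOXO list, YPEL3 and YPEL5 among them, 19 rose and 5 fell (3 fell without replicate 1 of either group and under upper-quartile scaling). The other yippee-like genes, added after their values were seen, had log2 fold changes of 1.26 (YPEL2), 1.22 (YPEL3) and 0.70 (YPEL5), all called. MXD4, a MAX partner that antagonises MYC, rose from 32.1, 30.1 and 29.5 CPM to 90.9, 82.6 and 88.6 CPM (log2 fold change 1.51), and HBP1, a repressor of cell cycle genes, by 1.15. MYC itself was at 132, 118 and 114 CPM and rose to 152, 160 and 153 CPM (log2 fold change 0.36, SE 0.063). Output genes of the ERK cascade were mixed: 8 of 33 (24.2%) rose and 11 (33.3%) fell, against 27.2% and 29.2% over all genes. DUSP6, a phosphatase of ERK, rose by 0.44, and SPRY2, a feedback inhibitor, was at 0.08 and was not called. EREG, a ligand of EGFR, fell from 247, 279 and 300 CPM to 152, 157 and 148 CPM (log2 fold change -0.85).

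**Figure D3:**
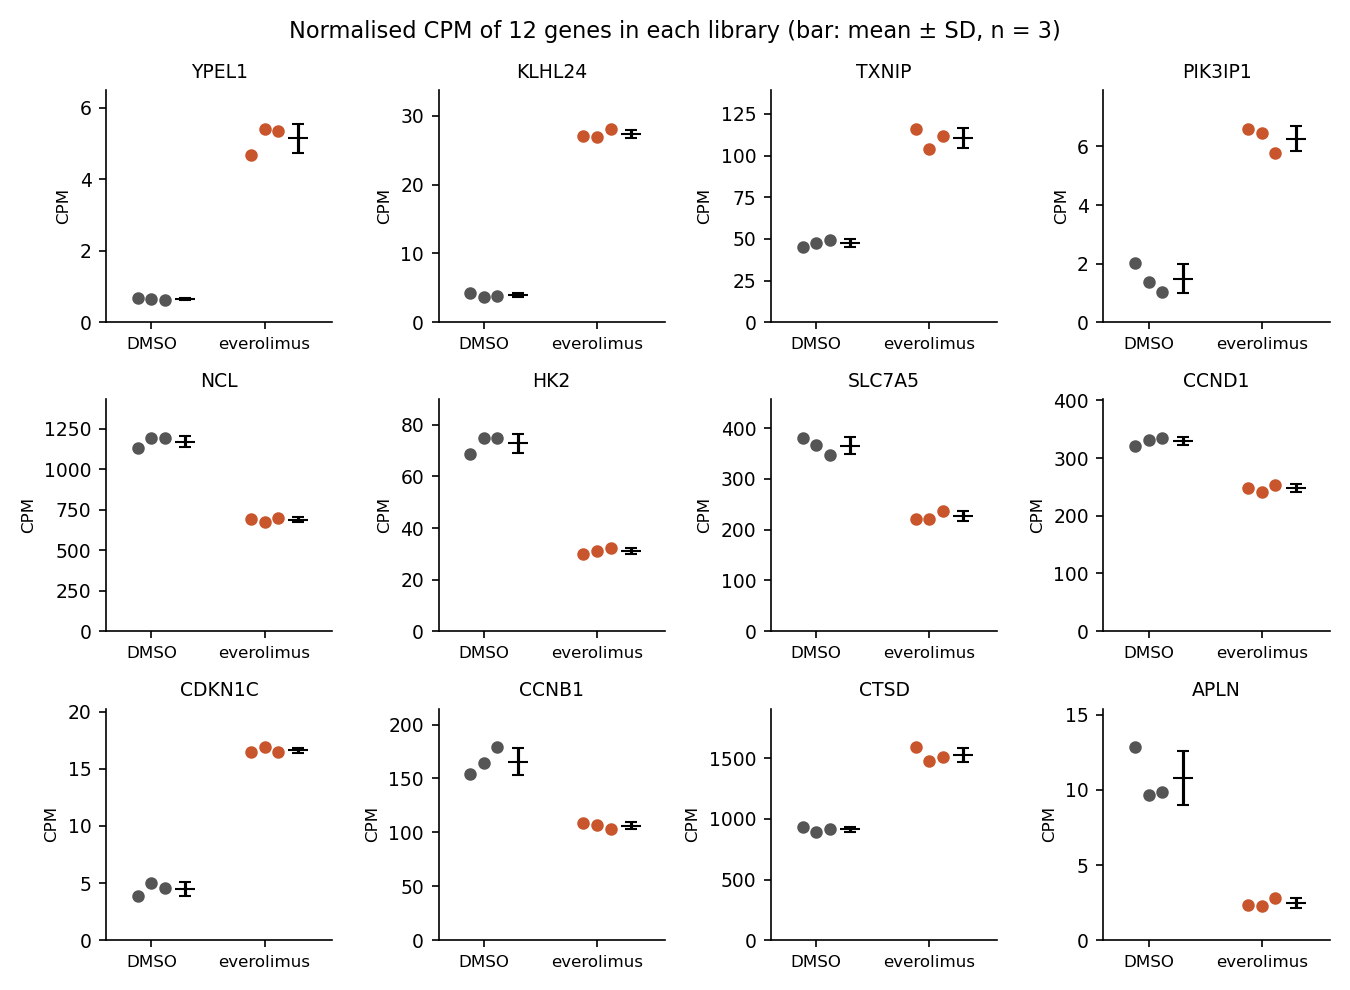
Level in CPM, on axes that start at 0, of 12 genes named in the text in each DMSO and everolimus library, with 1 point per library and a bar at the group mean with its SD (n = 3). In every panel all everolimus points lie on one side of all DMSO points, above them in 6 genes and below them in 6.

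In 8 of 9 metabolic lists more genes fell than rose, with medians of -0.41 to -0.11, and the targets of hypoxia-inducible factors were split. Nucleotide synthesis had the lowest median: 24 of 33 genes (72.7%) fell and 2 rose (4 under upper-quartile scaling), median -0.41. PPAT, the committed step of purine synthesis, went from 36.8, 42 and 44.4 CPM to 23.6, 23.5 and 21.4 CPM (log2 fold change -0.85, SE 0.072). CTPS1, which makes cytidine triphosphate, fell by 0.77, PAICS, a later purine enzyme, by 0.69, and CAD, the pyrimidine enzyme that S6 kinase phosphorylates, by 0.35. Of 22 genes of the pentose phosphate, serine and folate pathways 13 fell and 3 rose (8 under upper-quartile scaling). MTHFD1, a cytosolic folate enzyme, went from 230, 250 and 251 CPM to 142, 143 and 145 CPM (log2 fold change -0.76), and its mitochondrial counterpart MTHFD2 fell by 0.46. PHGDH, the entry step of serine synthesis, had too few counts to be tested.

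In glycolysis, 17 of 34 genes fell and 4 rose. HK2, the inducible hexokinase that traps glucose, went from 68.7, 74.9 and 74.9 CPM to 29.8, 30.9 and 32.3 CPM (log2 fold change -1.23, SE 0.056, adjusted p = 8.13e-12), the one member of the list past the DEG cut-off. GPI, the next enzyme, fell by 0.44. The glucose transporter SLC2A1 was at 750, 747 and 756 CPM in DMSO and at 756, 755 and 753 CPM with everolimus, a log2 fold change of 0.01 (SE 0.031) that did not pass the test. LDHA was at -0.10 and lost its call in 9 of the alternatives. The everolimus values of SLC2A1 lay inside the DMSO range or at its edge, whereas those of HK2 lay well under it.

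Mitochondrial energy genes also fell more often than they rose. Of 79 nuclear-encoded oxidative phosphorylation subunits 35 fell and 4 rose, with a median log2 fold change of -0.13. The number that rose was 2 without DMSO replicate 1 or everolimus replicates 1 or 3 and 8 without DMSO replicate 3. Under upper-quartile scaling 23 fell and 13 rose, with a median of -0.05. Mitochondrially encoded genes were not analysed here. CYC1, a subunit of complex III, went from 289, 278 and 281 CPM to 197, 198 and 203 CPM (log2 fold change -0.50), and SDHB, of complex II, fell by 0.58. ATP5MC1, a ring subunit of the ATP synthase, fell by 0.75. Of 27 tricarboxylic acid cycle genes 17 fell and 2 rose. IDH3A, the catalytic subunit of an isocitrate dehydrogenase, went from 45.1, 47.8 and 45.2 CPM to 25.7, 25.6 and 24.98 CPM (log2 fold change -0.85). In neither CYC1 nor IDH3A did the groups overlap.

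Sterol and fatty acid synthesis are under control of the SREBP factors. Of 31 cholesterol genes 13 fell and 4 rose, and of 26 fatty acid genes 12 fell and 4 rose. SREBF1 fell by 0.45 on the log2 scale whereas SREBF2 went from 221, 222 and 221 CPM to 279, 278 and 285 CPM (log2 fold change 0.34, SE 0.040). The fatty acid enzymes FASN and SCD fell by 0.35 and 0.45.

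ATF4, a transcription factor of amino acid supply whose translation mTOR promotes, went from 348, 318 and 325 CPM to 262, 261 and 267 CPM (log2 fold change -0.33, SE 0.041). Of 48 known targets 27 fell and 8 rose, with a median log2 fold change of -0.17. SLC7A5, a leucine transporter chain, fell from 380, 367 and 347 CPM to 220, 221 and 237 CPM (log2 fold change -0.69). ASNS, the asparagine synthetase, went the other way, from 30.7, 34.9 and 34.8 CPM to 43.0, 45.6 and 46.2 CPM (log2 fold change 0.43, SE 0.066, adjusted p = 2.74e-05), with no overlap between the groups. The ATF4 element letters TGATGCAA or TGATGAAA occurred in 8 of 40 promoters of the list (20%), against 0.886% of all. Of the 32 genes without these letters 18 fell and 5 rose. Of the 8 with them 6 fell and 1 rose, which was ASNS. Its 100 bases before the start, at chr7:97872409-97872508 on the minus strand of GRCh38.p14, hold TGATGAAA, shown in capitals.
ASNS: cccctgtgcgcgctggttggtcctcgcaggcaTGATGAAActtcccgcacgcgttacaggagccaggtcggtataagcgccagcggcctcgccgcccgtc

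Targets of hypoxia-inducible factors were split: 15 of 38 rose and 16 fell. The falling members included APLN, described above, CA12, a carbonic anhydrase, which went from 119, 113 and 112 CPM to 67.3, 62.0 and 65.1 CPM (log2 fold change -0.82), and VEGFA, the angiogenic growth factor, named after its value was seen, at -0.31. The rising members included EDN1, the vasoconstrictor peptide endothelin, which went from 5.80, 5.27 and 6.62 CPM to 20.6, 20.1 and 19.8 CPM (log2 fold change 1.78, SE 0.090), and BNIP3L, a mitophagy receptor, at 1.03. In CA12 and EDN1, which moved in opposite directions, the groups stood far apart.

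**Figure D4:**
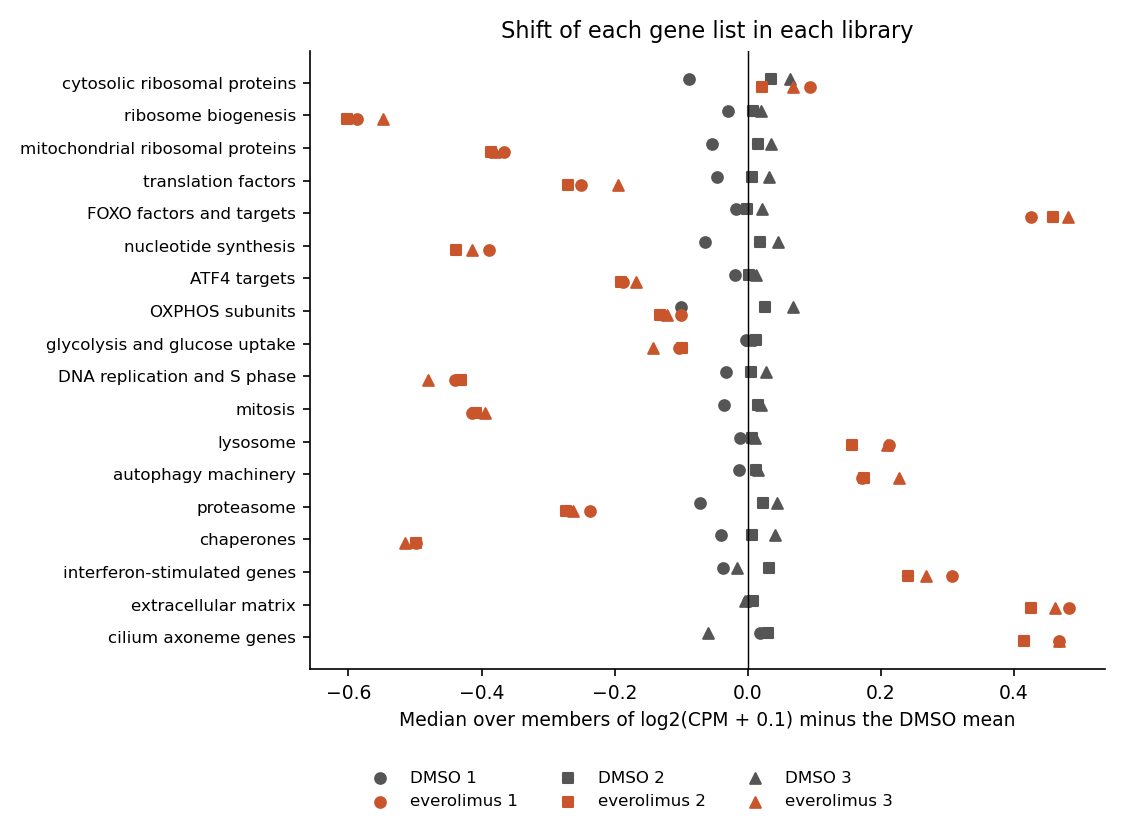
Shift of a set of gene lists in each of the 6 libraries, as the median over members of log2(CPM + 0.1) minus the DMSO mean of the gene. The 3 everolimus libraries lie together and outside the DMSO libraries for most lists, whereas the groups overlap for cytosolic ribosomal proteins and almost touch for oxidative phosphorylation.

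Cell cycle genes formed the other block that fell. Of 31 genes of the G1 phase, 17 fell and 7 rose. CCND1, the cyclin D1 of G1 entry, went from 321, 332 and 335 CPM to 249, 241 and 254 CPM (log2 fold change -0.41, SE 0.036), and CCND3 from 68.3, 60.7 and 57.1 CPM to 34.6, 34.3 and 32.9 CPM (log2 fold change -0.87). The inhibitors of cyclin-dependent kinases differed among themselves. CDKN1C rose from 3.84, 4.98 and 4.61 CPM to 16.5, 16.9 and 16.5 CPM (log2 fold change 1.89, SE 0.095), CDKN1B rose by 0.25, and CDKN1A, the p53-responsive member, was at -0.00 (adjusted p = 0.975). E2F1, the S phase transcription factor, fell by 0.51 and the phosphatase gene CDC25A by 0.79.

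Of 73 DNA replication and S phase genes 64 (87.7%) fell and 1 rose (2 without DMSO replicate 1 or everolimus replicate 3, and 2 under upper-quartile scaling), with a median log2 fold change of -0.47. MCM4, a subunit of the replicative helicase, went from 437, 440 and 455 CPM to 283, 288 and 296 CPM (log2 fold change -0.62, SE 0.035). DNMT1, the maintenance DNA methyltransferase that copies methylation behind the fork, went from 251, 246 and 239 CPM to 151, 155 and 156 CPM (log2 fold change -0.67), and RRM2, the regulatory subunit of ribonucleotide reductase, fell by 0.58. The E2F letters TTTCGCGC, TTTGGCGC or TTTCCCGC were in 24 of 62 replication promoters (38.7%) and in 4.64% of all promoters. Of the 24 genes with them 22 fell, as did 33 of the 38 without them. The promoters of MCM6 and of RFC3, a clamp loader subunit, are shown because they hold these letters, with the element in capitals (extended in MCM6, which has a pair of copies, and read on the other strand in RFC3). They lie at chr2:135876504-135876603 (minus strand, from 160 to 61 bases before the start) and chr13:33818049-33818148 (plus strand, the last 100 bases before the start), and the genes had log2 fold changes of -0.49 and -0.62.
MCM6: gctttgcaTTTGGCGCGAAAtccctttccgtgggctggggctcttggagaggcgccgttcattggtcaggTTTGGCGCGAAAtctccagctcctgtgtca
RFC3: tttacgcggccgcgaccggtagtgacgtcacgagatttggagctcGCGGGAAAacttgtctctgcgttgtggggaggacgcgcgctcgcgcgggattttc

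Mitotic genes fell as widely, 71 of 83 (85.5%) with 1 higher, at a median of -0.40. Without everolimus replicate 1, 2 were higher, and 3 without DMSO replicate 3 and under upper-quartile scaling. CDC20, an activator of the anaphase-promoting complex, was at 491, 495 and 493 CPM and fell to 297, 287 and 294 CPM (log2 fold change -0.75, SE 0.033, adjusted p = 6.14e-12). CCNB1, cyclin B1, went from 154, 164 and 179 CPM to 109, 107 and 103 CPM (log2 fold change -0.64), and AURKA, a spindle kinase, fell by 0.79. The DMSO and everolimus values of these genes did not overlap. The proliferation marker MKI67 fell by 0.47, and TOP2A was at -0.10 and not called (adjusted p = 0.0788), though called at -0.15 without DMSO replicate 1. In bulk RNA, fewer cycling cells and less of these transcripts per cell cannot be told apart. The cell cycle homology region TTTGAA was in 46 of 70 mitosis promoters (65.7%) against 9.56% of all. Of the 46 genes with it 39 fell, as did 20 of the 24 without it. CCAAT was in 49 of the 70 (70.0%) against 36.7%, and 40 of the 49 genes fell, as did 19 of the 21 without it. In the last 100 bases before the start of PLK1, CDC20 and CDCA8, chosen for holding both, TTTGAA and CCAAT (or its complement ATTGG) are in capitals, overlapping into one run in CDCA8, all on the plus strand at chr16:23678789-23678888, chr1:43358881-43358980 and chr1:37692416-37692515. The mitotic kinase gene PLK1 went from 329, 307 and 294 CPM to 174, 174 and 179 CPM (log2 fold change -0.82), and CDCA8, a chromosomal passenger protein, fell by 0.72.
PLK1: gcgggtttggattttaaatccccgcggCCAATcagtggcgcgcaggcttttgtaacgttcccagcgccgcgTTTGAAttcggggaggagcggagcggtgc
CDC20: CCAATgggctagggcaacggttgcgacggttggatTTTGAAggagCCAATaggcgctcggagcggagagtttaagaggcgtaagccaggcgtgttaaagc
CDCA8: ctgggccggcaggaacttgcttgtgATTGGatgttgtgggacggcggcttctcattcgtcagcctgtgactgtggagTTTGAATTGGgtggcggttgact

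Lysosomal genes rose: 46 of 88 (52.3%) were called higher and 10 lower (6 under upper-quartile scaling), at a median log2 fold change of 0.22. CTSD, the aspartic protease cathepsin D, was at 935, 894 and 918 CPM and rose to 1592, 1477 and 1512 CPM (log2 fold change 0.74, SE 0.042, adjusted p = 1.26e-10). CTSO, a cysteine cathepsin, went from 2.71, 2.36 and 2.96 CPM to 9.97, 9.89 and 9.51 CPM (log2 fold change 1.87), and FUCA1, the lysosomal fucosidase, rose by 0.85. The membrane protein LAMP1 rose by 0.27, from 229, 239 and 240 CPM to 284, 284 and 286 CPM. The transcription factors of the lysosomal programme were unequal, with MITF called higher at 0.28, TFE3 called lower at -0.23, and TFEB at -0.20 with a call that was lost in 7 alternatives. The E-box core CACGTG, to which these factors and MYC bind, was in 16 of 61 lysosomal promoters (26.2%) against 10.1% of all. Of those 16 genes 8 rose and 1 fell, and of the 45 without it 23 rose and 7 fell. The 100 bases before the start of CTSD (chr11:1763928-1764027, minus strand) and of GAA (chr17:80101481-80101580, plus strand), the acid glucosidase, are printed with the E-box in capitals. GAA, chosen for its pair of E-boxes, went from 7.86, 6.61 and 6.18 CPM to 17.7, 15.7 and 16.5 CPM (log2 fold change 1.27).
CTSD: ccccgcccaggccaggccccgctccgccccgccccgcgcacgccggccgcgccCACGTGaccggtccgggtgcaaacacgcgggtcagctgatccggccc
GAA: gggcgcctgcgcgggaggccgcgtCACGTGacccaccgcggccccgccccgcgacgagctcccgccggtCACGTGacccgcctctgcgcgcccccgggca

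The same core letters occurred in promoters of genes that moved the other way. CACGTG was in 39 of 105 ribosome biogenesis promoters (37.1%), a search added after the values were seen, and 36 of these genes fell, as did 58 of the 66 without it. UTP20, a component of the small-subunit processome that fell by 1.01, holds one just before its start (chr12:101280005-101280104, plus strand).
UTP20: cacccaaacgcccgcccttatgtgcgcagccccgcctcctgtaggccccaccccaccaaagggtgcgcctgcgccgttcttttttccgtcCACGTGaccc

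Of 61 autophagy genes 31 rose and 14 fell (7 fell under upper-quartile scaling). GABARAPL1, a ubiquitin-like protein of the autophagosome, went from 35.7, 37.7 and 38.3 CPM to 85.5, 84.9 and 79.1 CPM (log2 fold change 1.16, SE 0.049). The cargo receptor gene SQSTM1 went from 380, 380 and 374 CPM to 636, 619 and 619 CPM (log2 fold change 0.73), and WIPI1, which binds phosphoinositides on the forming membrane, rose by 0.75. In each of these genes all everolimus libraries were above all DMSO libraries. MAP1LC3B, which has a near-identical copy that could share its reads, rose by 0.33.

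Protein folding and degradation genes fell. Of 51 chaperone genes 37 fell and 4 rose (7 under upper-quartile scaling), median -0.52, and of 43 proteasome genes 36 (83.7%) fell and 1 rose (2 under upper-quartile scaling), median -0.26. FKBP4, a co-chaperone of HSP90 and a relative of the drug's binding partner, was at 268, 272 and 271 CPM and fell to 126, 126 and 122 CPM (log2 fold change -1.12, SE 0.034, adjusted p = 8.32e-14). CCT5, a subunit of the cytosolic chaperonin, fell from 1123, 1172 and 1199 CPM to 672, 656 and 665 CPM (log2 fold change -0.81), and HSPA5, the chaperone of the endoplasmic reticulum, named after its value was seen, by 0.72. PSMB2, a core particle subunit, fell from 306, 317 and 312 CPM to 228, 225 and 226 CPM (log2 fold change -0.46). The changes in proteasome genes were small in size, 35 of the 37 called being under 0.5 on the log2 scale.

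Stress programmes were mixed. Of 29 NRF2 targets 6 (20.7%) rose and 7 (24.1%) fell, and of 35 p53 targets 8 rose and 8 fell (22.9% each), all shares below those over all genes. Under upper-quartile scaling 13 NRF2 targets rose and 5 fell, and 10 p53 targets rose and 5 fell. FTH1, the ferritin heavy chain that stores iron, rose from 2587, 2477 and 2310 CPM to 4255, 3934 and 4061 CPM (log2 fold change 0.73), and ABCC3, an organic anion exporter, rose by 0.92. AEN, a p53-induced nuclease, fell from 36.8, 35.7 and 35.1 CPM to 15.3, 16.8 and 15.9 CPM (log2 fold change -1.16).

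**Figure D5:**
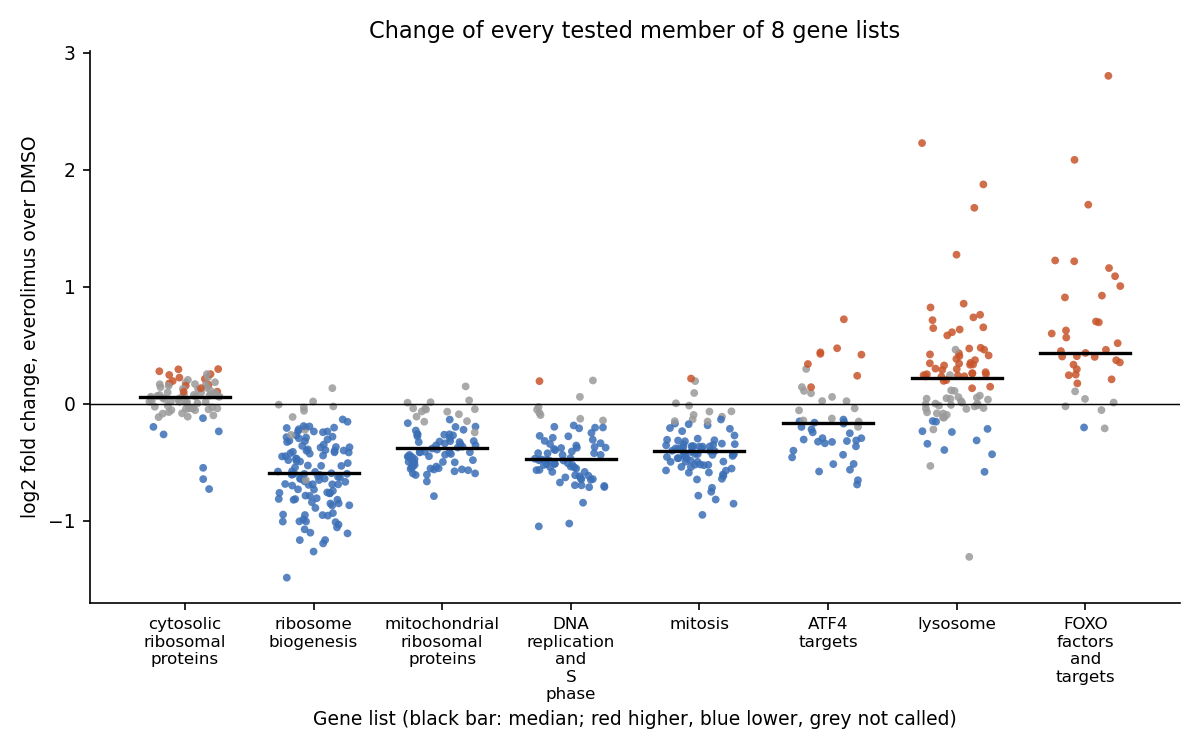
Log2 fold change, everolimus against DMSO, of every tested member of 8 gene lists, 1 point per gene coloured by call, with the list median marked. Most points of ribosome biogenesis, replication and mitosis are below 0, whereas most of the FOXO and lysosomal lists are above it.

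Interferon-stimulated genes rose modestly, 46 of 75 (61.3%) up and 5 down at a median of 0.27. STAT2, a subunit of the factor that transmits the signal, was at 36.7, 35.9 and 33.9 CPM and rose to 65.3, 67.6 and 65.5 CPM (log2 fold change 0.90, SE 0.054). IFIT2, an antiviral RNA-binding protein, went from 18.5, 18.7 and 18.1 CPM to 33.2, 30.4 and 31.5 CPM (log2 fold change 0.78), and HLA-B, a class I antigen whose reads may be shared with its paralogs, rose by 0.43. Among 34 cytokine and chemokine genes 14 rose and 6 fell. IL6, a pro-inflammatory cytokine, went from 39.3, 36.6 and 41.5 CPM to 79.6, 83.9 and 78.1 CPM (log2 fold change 1.04, SE 0.070), and TNFAIP3, a brake on NF-kB signalling, rose by 0.80, whereas the adhesion molecule gene ICAM1 fell by 0.57.

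Extracellular matrix genes rose in most cases, 46 of 64 (71.9%) higher and 4 lower at a median log2 fold change of 0.46. The number lower was 2 without DMSO replicate 3 or everolimus replicate 2 and 1 under upper-quartile scaling. COL4A1, a basement membrane collagen, went from 351, 355 and 378 CPM to 705, 688 and 706 CPM (log2 fold change 0.95, SE 0.036, adjusted p = 1.17e-12), and FBN1, the microfibril protein fibrillin, rose by 0.96. Fibronectin (FN1), among the most abundant transcripts of these cells, went from 24502, 26351 and 25842 CPM to 35935, 34338 and 35532 CPM (log2 fold change 0.46). Genes of the actin cytoskeleton and of SRF or YAP were split, 20 of 47 up and 16 down (10 down under upper-quartile scaling), with the tropomyosin gene TPM1 at 0.72 and the muscle filamin FLNC at -0.63. TUBA1A, a tubulin whose reads may be shared with close paralogs, rose from 137, 133 and 146 CPM to 389, 356 and 369 CPM (log2 fold change 1.42).

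Of 54 tested genes of the ciliary axoneme and its transport, out of 85 in the table, 32 (59.3%) rose and 1 fell (2 without DMSO replicate 3), with a median of 0.47 and 11 past the DEG cut-off. IFT140, a motor-borne transport protein of the cilium, went from 22.1, 18.9 and 18.5 CPM to 40.1, 38.8 and 40.5 CPM (log2 fold change 1.004, SE 0.061), and DNAH5, an outer arm dynein, from 4.83, 4.57 and 4.69 CPM to 10.1, 10.3 and 10.5 CPM (log2 fold change 1.13). Many members are scarce, and on FPKM with a pseudocount of 1 the median came to 0.12. Of all genes in the lowest level class, 27.5% were called higher and 6.93% lower. Of 17 clock genes 2 rose and 6 fell (3 fell under upper-quartile scaling), with the repressor NR1D2 at 0.67 and PER3 at -0.31.

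A direct comparison with the libraries given SGI-1027 alone showed where the everolimus response differed from that of another drug. With everolimus, 1221 genes (9.51%) were higher and 1663 (13.0%) lower than with SGI-1027, and without everolimus replicate 1 the first count was 773. Of the ribosome biogenesis genes 7 of 124 were higher and 24 lower, with a median difference of -0.06 on the log2 scale. NCL was at 675, 666 and 636 CPM with SGI-1027, and its difference from everolimus of 0.06 (adjusted p = 0.22) did not pass the test. Mitotic genes differed in one direction: 75 of 83 genes were higher with everolimus than with SGI-1027 and 0 lower, median 0.36. CCNB1, for example, was at 75.2, 79.5 and 68.8 CPM with SGI-1027, below its everolimus values, and the log2 difference was 0.51 (adjusted p = 2.6e-06). Oxidative phosphorylation (24 higher, 0 lower) and the proteasome (22 higher, 1 lower) leaned the same way.

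In the other direction, 73 of 75 interferon-stimulated genes were lower with everolimus than with SGI-1027, at a median of -1.02. STAT2 was at 149, 134 and 157 CPM with SGI-1027, and the log2 difference was -1.15 (adjusted p = 1.7e-11). ATF4 targets were also lower with everolimus, 40 of 48 with 0 higher and a median of -0.36, ASNS among them, which was at 72.9, 70.4 and 62.5 CPM with SGI-1027 (log2 difference -0.61). Of the lysosomal genes, 39 of 88 were lower and 1 higher, and CTSD, at 2122, 2144 and 2360 CPM with SGI-1027, differed by -0.53. CCND1 stood at 461, 461 and 475 CPM with SGI-1027, above both its DMSO and its everolimus values, and differed from everolimus by -0.91. FOXO targets differed in both directions, 6 higher and 7 lower, and KLHL24, at 26.7, 27.0 and 25.1 CPM with SGI-1027, had a difference of 0.06 (adjusted p = 0.48) that did not pass the test.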

How the data were processed

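Messenger RNA of 786-O cells was sequenced in 12 libraries, of which the 3 DMSO and the 3 everolimus libraries were compared. Labels name the SMARTER kit and RNeasy columns, whereas the study's methods name TRIzol and the TruSeq Stranded kit. The authors deposited raw counts per gene and FPKM values, which were found to equal the count divided by gene length and column total. The submitters' processing notes name mouse builds (GRCm38, mm10) although the symbols are human, and the aligner and counter are not given in the sources used here.

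Counts of all 12 libraries were fitted with edgeR 4.0.16 (R 4.3.3) by the quasi-likelihood test after filterByExpr and TMM scaling, with group as the factor and Benjamini-Hochberg adjustment over 12841 genes. CPM values are normalized by TMM. The alternatives were DESeq2 1.42.0, limma 3.58.1 on log2(FPKM + 1) and log2(FPKM + 0.1), upper-quartile scaling, other filters, the 6 libraries alone, a replicate block and the omission of each library. On data simulated for this comparison (12750 genes), edgeR recovered 84 of 100 genes changed by 0.5 on the log2 scale and 97 of 100 changed by 1.5, with 9 false calls. The changed genes excluded scarce ones and were split evenly between the directions, and all other genes were left unchanged. The simulation therefore does not cover a response as broad as the one found, nor the effect of the scaling. Same-numbered libraries deviated with correlations of -0.0045, 0.035 and -0.054, so numbers were not taken as pairs.

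Members and gene lists were chosen with earlier results of these data known. Genes were named by a rule: the 10 highest and 10 lowest called fold changes among genes averaging 50 counts or more whose groups do not overlap, genes fixed for their role, the 3 smallest p-values of each of 36 lists, and the 5 smallest p-values in each direction among changes under 0.5. A few genes that the rule names are not reported here. Genes outside it (LYAR, RPL17, RPS10, YPEL2, YPEL3, YPEL5, PLK1, CDCA8, MCM6, RFC3, UTP20, GAA, HSPA5, VEGFA, FN1 and those of the closing section) were chosen after their values were seen or for a motif. Promoters are 300 bases from RefSeq on GRCh38.p14.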

Additional observations from a re-analysis of the deposited data

How the results depend on the processing

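No gene called in the main fit was called in the opposite direction under any of the 14 alternatives run. Leaving out one library at a time gave 3115 to 3364 genes higher and 3419 to 3681 lower than DMSO, 464 to 544 upregulated and 107 to 132 downregulated DEGs, and, against SGI-1027, 773 to 1174 higher and 1229 to 1594 lower, the lowest first count being that without everolimus replicate 1. With the replicate number as a block, 3420 genes rose and 3664 fell, with 498 and 115 DEGs, although the numbers were not shown to pair the libraries; against SGI-1027 the block gave 1049 higher and 1542 lower. Upper-quartile scaling gave 4480 higher and 2901 lower. DEG counts depended on scarce genes and on the scale: requiring at least 10 counts in every library gave 297 upregulated and 71 downregulated DEGs, log2(FPKM + 1) gave 48 and 24, and log2(FPKM + 0.1) gave 209 and 58, since pseudocounts shrink the changes of scarce genes. The median log2 fold changes of the mTOR, ERK, HIF, p53 and clock lists lay near 0 and changed sign under upper-quartile scaling. A fit of the 6 libraries alone gave 10 oxidative phosphorylation genes higher, and requiring at least 10 counts gave 5 p53 targets higher. Among the results for single genes and lists, 4318 stayed on their side of the threshold or within the replicate spread, 176 moved further, 41 lost a call and 26 gained one. Depth limits scarce genes most: 1349 of the tested genes were under 1 CPM in DMSO.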

Other observations

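Some gene families outside the lists above were defined by their symbols after the values were seen and are given as a description, to be read against the 27.2% of all tested genes called higher and the 29.2% called lower. Of 21 nucleoporin genes, which build the nuclear pore, 19 fell and 0 rose (median log2 fold change -0.41), with NUP188 at -0.88 and NUP205 at -0.65. Of 25 importin and exportin genes, the carriers through that pore, 23 fell and 0 rose (median -0.28). IPO4, an importin that carries histones and ribosomal proteins, went from 166, 170 and 163 CPM in DMSO to 71.7, 75.8 and 73.9 CPM with everolimus, a log2 fold change of -1.17. KPNB1, importin beta, was at -0.61, whereas the exportin XPO1 was at -0.20. Of 24 genes for protein import into mitochondria 20 fell and 1 rose (median -0.47), with the outer membrane channel gene TOMM40 at -0.99 and the small subunit TOMM7 at 0.43. SRSF and SF3 splicing factor genes had 13 of 20 lower and 2 higher.

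In other families more genes rose than fell. Of 436 genes named ZNF, most of them zinc finger transcription factors, 141 (32.3%) rose, a share near that of all genes, and 44 fell. Of 23 histone genes 10 (43.5%) rose and 2 fell. The variants H2AX and H2AZ1, which have polyadenylated transcripts, were at -0.24 and -0.30. Of 22 integrin genes 12 (54.5%) rose and 3 fell, with ITGB3 at 0.81 and ITGAV, its partner chain, at 0.73, and ITGA5, a chain of the fibronectin receptor, at -0.40. Of 13 matrix metalloproteinase genes 6 (46.2%) rose and 1 fell. The collagenase gene MMP1 went from 5.10, 5.85 and 6.96 CPM to 13.9, 15.5 and 14.6 CPM (log2 fold change 1.29), and the gelatinase gene MMP2 was at 0.63. Of 18 histone lysine demethylase genes 12 (66.7%) rose and 3 fell. Of 10 protocadherin beta genes, near-identical neighbours whose reads may be shared, 6 rose and 0 fell, and 8 of the 10 were under 1 CPM in DMSO. The median DMSO level was 6.99 CPM for ZNF, 1.86 for histone, 13.5 for integrin, 5.97 for metalloproteinase, 46.0 for demethylase and 0.523 CPM for protocadherin beta genes. Few scarce genes were called lower in general, 6.93% in the lowest of the 5 level classes and 21.1% in the next.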
